A study of Hypomesus transpacificus with 70 samples.

Results

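Transcript levels of 3 genes of G-protein signaling, rgs4, hcar1-1 and npb, were measured in the gill of delta smelt exposed to different salinities. They were chosen by name from the study's list of salinity-responsive transcripts, as 3 of its 487 transcripts, and they carry 4 of the 36818 probes on the array that are not controls. RGS4 is transcript isotig13117, HCAR1-1 is isotig27600 and NPB is isotig28811. The list gives isotig13117 the symbol rgs4 but the protein name of regulator of G-protein signaling 16, so which of these close relatives it is was not settled here. For isotig27600 the protein is unnamed in the list, and the symbol is that of a hydroxycarboxylic acid receptor. Of the 3 symbols as spelled, only npb was found in the reference gene table of the species. Other spellings and names were not looked up, so the other genes may be there under another symbol.

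Fish were prespawning adults kept for at least 2 weeks at 2.3 ppt, and each of 70 arrays held the gill RNA of 1 fish. Salinity was changed over 6 h to 0.4, 6, 12 or 18 ppt, or kept at 2.3 ppt in the handling control, and fish were taken 0, 18 and 42 h after the target was reached. Each treatment group held 4 fish, except the 3 fish at 12 ppt and 18 h. The handling control held 6 fish at each time, and 5 fish were taken at 2.3 ppt before the experiment. By the study's methods, fish were exposed in groups in containers, with additional containers for the handling control alone, and the labels name no container. Container and group can therefore not be told apart, and the p-values measure the spread between fish. The labels mark control and pre-experiment fish with a letter from A to C, which is kept here in the name of the fish and whose meaning they do not give.

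G proteins carry signals from receptors in the cell membrane to enzymes and channels inside the cell. In mammals, HCAR1 (also called GPR81) is a receptor for lactate that couples to inhibitory G proteins, and NPB is a secreted neuropeptide that acts on receptors of the same broad class. RGS proteins act at a later step, where they speed the hydrolysis of GTP by the G-protein alpha subunit and so shorten the signal. The gill is the main site where a fish exchanges ions with the water.

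The probe sequences are shown because every value below is a hybridization signal on them. Each is 60 bases long. The 2 probes of RGS4 overlap by the 36 bases in capitals and are offset by 24 bases, so they are not independent readings of the transcript.

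RGS4 probe A: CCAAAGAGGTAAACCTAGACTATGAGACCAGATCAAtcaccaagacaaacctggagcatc
RGS4 probe B: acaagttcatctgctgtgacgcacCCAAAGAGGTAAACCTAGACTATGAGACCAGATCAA
HCAR1-1 probe: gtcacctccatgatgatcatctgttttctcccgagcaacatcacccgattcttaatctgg
NPB probe: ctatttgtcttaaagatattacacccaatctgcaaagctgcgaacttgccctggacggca

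Median array signal over all probes ranged from 12.9 to 131, and 62.0% to 90.8% of probes were well above background. No member probe was saturated on any array. The probes of RGS4 and HCAR1-1 were well above background on 70 of 70 arrays, and that of NPB on 68. The 2 arrays where NPB was not held fish 5 at 18 ppt and 42 h, at a processed signal of 3.22, and fish 3 at 12 ppt and 0 h, at 3.96. The filter used here asked for a signal of 100 on at least 50% of arrays, which joins the separate criteria for signal and for detection in the study's methods. NPB reached that signal on only 24 arrays, so it was taken from a fit of all probes without the filter. RGS4 probe A passed at the limit, on 35 arrays, and probe B passed on 53. Levels are log2 of the quantile-normalized signal. They are comparable between fish for 1 gene but not between genes, and fewer cells of a type cannot be told apart from less RNA per cell.

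Averaged over the 3 times, RGS4 was highest in fish at 0.4 ppt and lowest at 18 ppt. Its mean level was 8.84 in 0.4 ppt fish. It was 7.71 in the handling control, and 7.19, 6.88 and 6.44 in fish held in 6, 12 and 18 ppt. The spread between fish of 1 group (SD) was 0.60 to 0.83 at these salinities. Salinity affected RGS4 (F test in limma, Benjamini-Hochberg q = 2.63e-07), as it did 0.828% of the features tested. The study put all 3 genes on its list for an effect of salinity in these same fish, so this call is not independent evidence. Exposure time, which affected 35.6% of features, did not pass for RGS4 (q = 0.385), nor did the interaction of salinity and time (q = 0.265), which passed for 0.0561% of features.

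**Figure D1:**
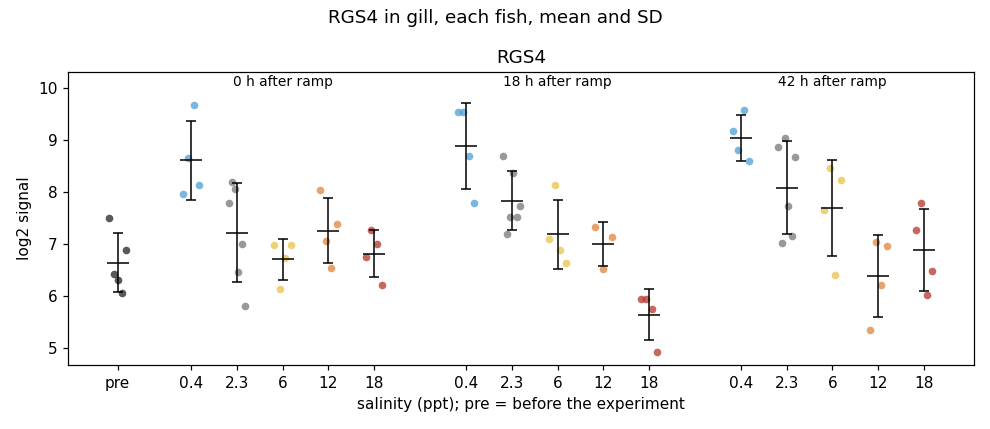
RGS4 level (log2 signal) in each fish by salinity (ppt) and time after the ramp, with pre-experiment fish at the left; points are fish, and bars are the group mean and SD. All 4 fish at 18 ppt and 18 h lie between 4.91 and 5.95, below the lowest handling control of that time at 7.19.

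At 18 ppt, the 4 fish at 0 h had RGS4 levels of 6.75, 7.27, 7.0 and 6.21, against a lowest, median and highest level of 5.81, 7.39 and 8.18 in the 6 handling controls. These groups overlapped fully. At 18 h the fish at 18 ppt had 5.95, 5.93, 5.75 and 4.91, against 7.19, 7.63 and 8.68 (lowest, median and highest) in the handling control. None of the 4 reached the lowest control. At 42 h they had 7.27, 7.79, 6.01 and 6.47, against 7.02, 8.20 and 9.04 in the handling control, and 2 of the 4 lay below the lowest control. In all, 11 of 12 fish at 18 ppt were below the control mean of the same time. For 18 ppt against the control at 18 h, 724 of 14250 features had an unadjusted limma p under 0.05. The share of features with all treated fish outside the control range was not counted, here or below.

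Averaged over times, the RGS4 level at 18 ppt was 1.27 lower on the log2 scale than at 2.3 ppt (SE 0.26, limma adjusted p = 0.0109), or 2.41-fold. This comparison called 0.133% of features. Group means at 0, 18 and 42 h were 6.81, 5.64 and 6.88 at 18 ppt, and 7.22, 7.83 and 8.08 in the handling control. The pre-experiment mean was 6.63. From 0 to 42 h the handling control changed by 0.86 (SE 0.40, limma adjusted p = 0.175). By time, the difference of 18 ppt from the control was -0.41 at 0 h (SE 0.45, adjusted p = 0.796), -2.20 at 18 h (adjusted p = 0.0532) and -1.20 at 42 h (adjusted p = 0.247). Over all settings run, this one included, the 18 h difference passed in 6 of 20 and ran from -2.72 to -1.34, the last with normexp background correction. Among these passes was the methods' post hoc test, which adjusts p within the gene alone. The study's methods read it at single times where the interaction passed, which it did not for RGS4 here. The 42 h difference ran from -1.83 to 0.25 and passed in 0 of 21. In the main fit, where RGS4 passed at neither time, 18 ppt against the control called 0.00702% of features at 18 h and 0.0912% at 42 h. The shares in the settings where RGS4 passed were not counted. The overall difference was -1.33 within the arrays of scan 1 (adjusted p = 0.0579), and -1.09 and -0.95 within the scanner gain (PMT) settings of 580 and 610 (adjusted p = 0.735 and 0.501). Scan 2 held no fish at 18 ppt and 18 h, and at 42 h it held 1 fish at 18 ppt and 1 control, with a difference of 0.25.

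At 12 ppt, RGS4 passed the test against the controls at 42 h, but not at 0 or 18 h. The direct test of the 42 h difference against the 0 h difference did not pass (-1.74, SE 0.63, limma adjusted p = 0.112). It called 2.28% of features. At 42 h the 4 fish at 12 ppt had levels of 5.34, 7.03, 6.21 and 6.96, and 3 of them lay below the lowest control at 7.02. That difference passed the test (log2 difference -1.70, SE 0.45, adjusted p = 0.0404), in a comparison that called 0.996% of features. In the same fish, 4 of 5 transcripts that mark dividing cells passed as higher, and the log2 of their summed signal was 11.3 to 11.6, against 9.46 to 10.7 in the controls. For 6 ionocyte markers this sum was 14.2 to 14.9, against 14.8 to 15.3. Of these 0 of 6 passed, and their log2 differences ran from -0.94 to 0.82. The part of these cells in the RGS4 level was not tested. At 0 h the 12 ppt fish had 8.04, 7.06, 6.54 and 7.38, with a mean of 7.26 against 7.22 in the controls. The 3 fish at 18 h had 7.33, 6.53 and 7.14, a difference of -0.84 (adjusted p = 0.848). Averaged over times, the difference at 12 ppt was -0.83 (SE 0.27, 95% interval -1.37 to -0.30, adjusted p = 0.258), where 0.0351% of features were called. The call at 42 h was lost on leaving out any of 5 fish, 2 at 12 ppt (fish 1 and 3) and 3 handling controls (A1, A3 and C2), and the adjusted p then reached 0.303.

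At 6 ppt, RGS4 had levels of 6.97, 6.14, 6.72 and 6.98 at 0 h, 7.09, 8.13, 6.88 and 6.63 at 18 h, and 7.65, 8.46, 6.40 and 8.24 at 42 h. The difference from 2.3 ppt averaged over times was -0.52 (SE 0.26, 95% interval -1.04 to -0.0032, adjusted p = 0.453), and 0% of features were called.

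At 0.4 ppt, the fish had RGS4 levels of 7.97, 8.65, 9.66 and 8.14 at 0 h, 9.53, 9.54, 8.69 and 7.79 at 18 h, and 9.17, 8.81, 9.59 and 8.59 at 42 h. Of these 12 fish, 11 were above the control mean of the same time and 7 were above the highest control. For 0.4 ppt against 2.3 ppt over all times, 1381 of 14250 features had an unadjusted limma p under 0.05. The RGS4 difference from 2.3 ppt averaged over times was 1.13 (SE 0.26, 95% interval 0.62 to 1.65), or 2.19-fold. It did not pass after adjustment (adjusted p = 0.147), in a comparison that called 0% of features. By time it was 1.39, 1.05 and 0.96 at 0, 18 and 42 h (adjusted p = 0.505, 0.831 and 1.00). Leukocyte markers (il1b, CXCR5, TNFRSF9, il12ba and irg1l, as 6 transcripts) were mixed at 0.4 ppt. Over all times their log2 differences ran from -0.70, for CXCR5, to 1.42, with a median of 1.17, and 0 of 6 passed. The log2 of their summed signal was 9.78 to 12.4 against 7.87 to 10.4 in the controls at 0 h, 10.6 to 13.1 against 10.0 to 11.9 at 18 h, and 12.0 to 12.5 against 10.6 to 12.5 at 42 h. At 12 ppt the log2 differences of these markers over all times ran from -0.64 to 1.38, with a median of 0.95. The part of leukocytes in the RGS4 level was not tested. Leaving out handling control A1 at 18 h brought the RGS4 difference at 0.4 ppt past the threshold (1.19, adjusted p = 0.0416).

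The salinity of the handling control lies between 0.4 and 6 ppt, so a comparison of 0.4 with 6 ppt skips it. RGS4 was lower at 6 ppt than at 0.4 ppt (log2 difference -1.65, SE 0.28, limma adjusted p = 0.00112), where 2.83% of features were called. The steps from 6 to 12 ppt (-0.31, adjusted p = 0.678) and from 12 to 18 ppt (-0.43, adjusted p = 0.860) did not pass, with 95% intervals of -0.89 to 0.27 and -1.02 to 0.15. Across the whole range, RGS4 at 18 ppt was 5.28-fold lower than at 0.4 ppt (log2 difference -2.40, SE 0.28, adjusted p = 3.88e-08), and 0.302% of features were called. Averaged over times, its mean levels fell in order from 0.4 ppt to 18 ppt, but this order did not hold at each time. At 0 h the mean was lower at 6 ppt (6.70) than at 12 ppt (7.26). At 42 h it was lower at 12 ppt (6.38) than at 18 ppt (6.88). With the handling control counted among the salinities, no step between adjacent salinities passed when averaged over times.

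Before the experiment, RGS4 was at 7.50, 6.43, 6.30, 6.06 and 6.89 in the 5 fish. The 4 fish at 0.4 ppt and 0 h, listed above, were all higher than these. This difference of 1.97 (SE 0.46, adjusted p = 0.0389) passed, as did 0.232% of features, and the other salinities at 0 h, the handling control included, did not pass for RGS4 against the pre-experiment fish. The log2 of the summed leukocyte signal was 9.78 to 12.4 in the 0.4 ppt fish, against 8.11 to 9.35 in the pre-experiment fish. Of the 6 markers 1 passed as higher, and their log2 differences ran from -0.29 to 2.58. For 6 epithelial barrier markers the sum was 12.0 to 12.4, against at most 11.9. Of these 0 of 6 passed, and their log2 differences ran from -0.22 to 1.05. Neither pair of ranges of the sums overlapped, but this was not particular to 0.4 ppt. The barrier sum of the handling control at 0 h was 11.91 to 12.52, also above the pre-experiment fish (at most 11.86). The leukocyte sum at 18 ppt and 0 h was 9.45 to 11.3, above their 9.35. The part of these cells in the RGS4 level was not tested. The handling control itself differed from the pre-experiment fish in RGS4 by 0.58 (SE 0.42, adjusted p = 0.523). The call at 0.4 ppt was lost on leaving out any of 7 of the 9 fish, 3 at 0.4 ppt (fish 2, 3 and 4) and 4 pre-experiment fish (A3, B1, B4 and C4), with an adjusted p of up to 0.269.

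Both RGS4 probes gave the same direction at every salinity averaged over times. At 18 ppt the difference was -1.31 for probe A and -1.23 for probe B, and at 0.4 ppt it was 1.13 for each. Across the 70 fish, after removing group means, the 2 probes correlated at r = 0.902, as overlapping probes on the same array.

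HCAR1-1 was lower in 18 ppt fish than in controls, and no other salinity passed against 2.3 ppt. Mean levels averaged over times were 7.42 in 0.4 ppt fish, 7.59 in the handling control, and 7.45, 7.38 and 6.85 in the 6, 12 and 18 ppt fish. The effect of salinity was just short of the threshold (q = 0.0535, and past it in 10 of 65 runs that left out 1 fish), and neither time (q = 0.638) nor the interaction (q = 0.489) passed.

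At 18 ppt, HCAR1-1 was at 7.0, 7.21, 7.46 and 6.73 at 0 h, against a lowest, median and highest of 6.60, 7.70 and 8.34 in the 6 controls. At 18 h it was at 7.17, 6.99, 6.78 and 7.18, against 6.95, 7.49 and 8.77 in controls. At 42 h it was at 6.12, 6.60, 6.44 and 6.55, against 7.40, 7.48 and 7.83. The groups overlapped at 0 and 18 h and were apart at 42 h. All 12 fish at 18 ppt were below the control mean of the same time. For 18 ppt against the control at 42 h, 1958 of 14254 features had an unadjusted limma p under 0.05.

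Averaged over times, the HCAR1-1 level at 18 ppt was 0.74 lower on the log2 scale than at 2.3 ppt (SE 0.16, adjusted p = 0.0168), or 1.67-fold. The pre-experiment mean was 7.15. Group means at 0, 18 and 42 h were 7.10, 7.03 and 6.43 at 18 ppt, against 7.64, 7.58 and 7.56 in the handling control. The differences at 0, 18 and 42 h were -0.54 (adjusted p = 0.753), -0.54 (adjusted p = 0.963) and -1.13 (SE 0.27, adjusted p = 0.0771). The difference at 42 h passed in 6 of the 19 settings run, the authors' table (-1.52, adjusted p = 0.0281) and 75th percentile normalization (-1.53, adjusted p = 0.0208) among them. Another of these was the methods' post hoc test, which adjusts p within the gene alone. It was run although neither salinity nor the interaction passed for HCAR1-1. With a replicate block the difference at 42 h was -0.73. Within scan 1 the overall difference was -0.73 (adjusted p = 0.207), and within the PMT settings of 580 and 610 it was -0.89 and -0.70 (adjusted p = 0.449 and 0.377). Leaving out fish 1 at 18 ppt and 42 h, or fish 5 at 18 ppt and 0 h, ended the call (adjusted p = 0.0570 and 0.0651).

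For HCAR1-1, the other differences from 2.3 ppt averaged over times were -0.18, -0.14 and -0.21 for the 0.4, 6 and 12 ppt fish. Their 95% intervals ran from -0.49 to 0.14, from -0.45 to 0.18 and from -0.54 to 0.11. The level at 18 ppt was lower than at 12 ppt by 0.52 on the log2 scale (log2 difference -0.52, SE 0.18, adjusted p = 0.724) and this did not pass. No salinity at 0 h differed from the pre-experiment fish, which were at 7.48, 7.22, 7.10, 6.78 and 7.18, by an amount that passed.

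NPB was lowest at 18 ppt and 42 h, with a wide spread between fish. Mean levels averaged over times were 6.45 in 0.4 ppt fish, 6.53 in the handling control, and 6.16, 6.01 and 5.26 in the 6, 12 and 18 ppt fish, with an SD within groups of 0.62 to 1.01. In the fit of all probes, salinity (q = 0.188), time (q = 0.907) and their interaction (q = 0.350) did not pass for NPB, and salinity passed for 0.224% of features.

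At 18 ppt, NPB was at 4.97, 5.30, 6.70 and 5.57 at 0 h, against a lowest, median and highest of 4.62, 7.0 and 7.33 in controls. At 18 h it was at 6.17, 6.48, 5.07 and 5.72, against 5.36, 6.37 and 8.70 in controls. At 42 h it was at 4.13, 3.65, 3.74 and 5.62, against 5.73, 6.40 and 7.18, so that all 4 fish lay below the lowest control. One of these 4, at 3.65, was the fish not well above background, and 11 of 12 fish at 18 ppt were below the control mean of the same time. In the fit without the filter, 4856 of 36608 features had an unadjusted limma p under 0.05 at 18 ppt and 42 h.

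**Figure D2:**
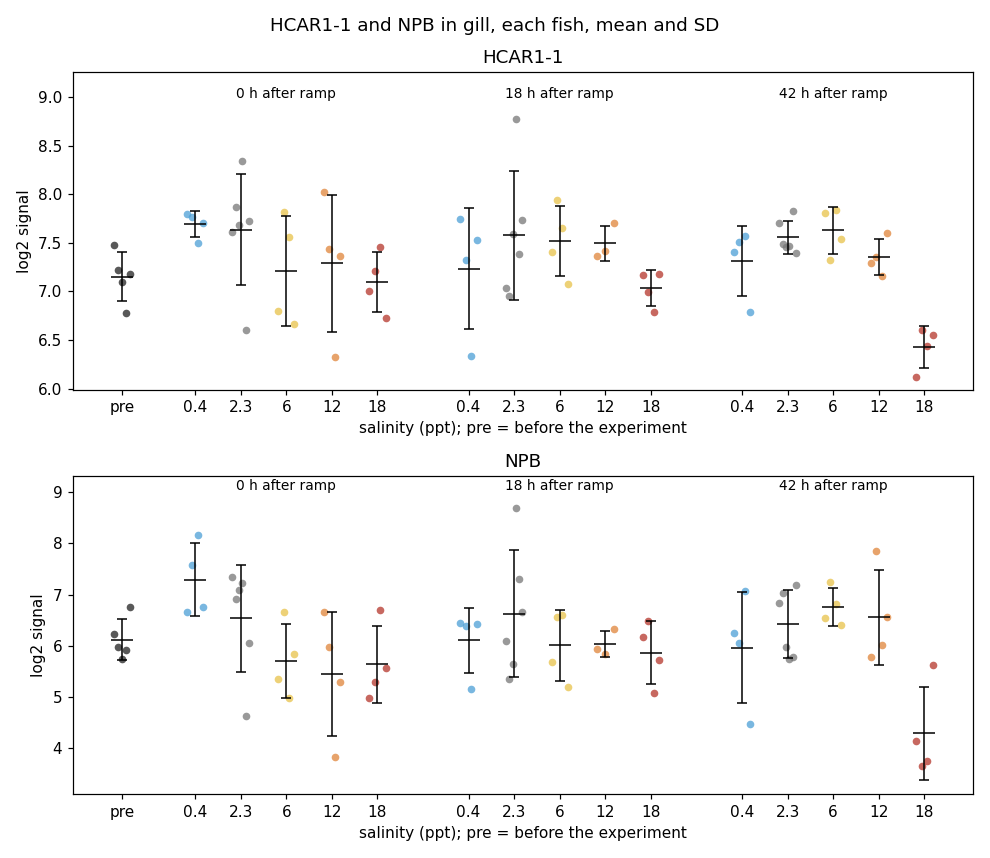
HCAR1-1 (top) and NPB (bottom) levels (log2 signal) in each fish by salinity (ppt) and time after the ramp, with pre-experiment fish at the left; points are fish, and bars are the group mean and SD. At 18 ppt and 42 h, HCAR1-1 lies at 6.12 to 6.60 and NPB at 3.65 to 5.62, below every control of that time.

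The NPB difference at 18 ppt averaged over times was -1.27 (SE 0.31, 95% interval -1.88 to -0.65, adjusted p = 0.168), which did not pass, in a comparison that called 0.0464% of features. It was -0.90 at 0 h (adjusted p = 0.708), -0.77 at 18 h (adjusted p = 1.00) and -2.14 at 42 h (SE 0.53, adjusted p = 0.106), where 0.0519% of features were called. With a normexp background correction the overall difference was -0.59 and that at 42 h -0.86. This correction added an offset of 50 to every signal, and the median NPB signal was 72.2. The part of the offset in the smaller differences was not tested. Without that correction, the overall difference was -1.28 within scan 1, and -1.53 and -1.14 within the PMT settings of 580 and 610. Leaving out fish 7 at 18 ppt and 42 h, or handling control C1 at 0 h, brought the overall difference past the threshold (adjusted p = 0.0411 and 0.0321).

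**Figure D3:**
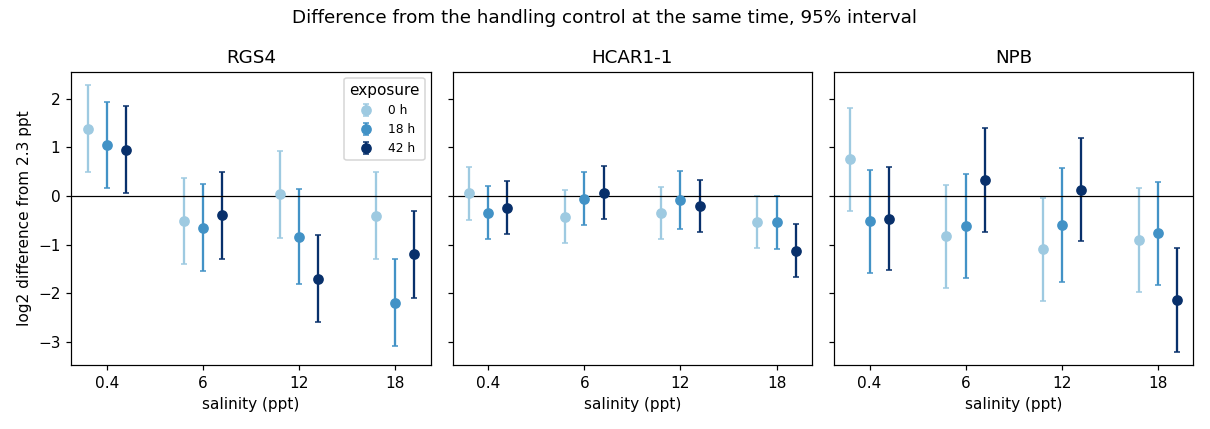
Difference in log2 level between each salinity (ppt) and the handling control of the same time for RGS4, HCAR1-1 and NPB; points are limma estimates, shaded from 0 to 42 h, and bars are 95% intervals. RGS4 lies above 0 at 0.4 ppt and furthest below at 18 ppt and 18 h (-2.20), while HCAR1-1 and NPB are furthest below at 18 ppt and 42 h (-1.13 and -2.14).

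NPB levels at the other salinities varied widely between fish and times. At 0.4 ppt the fish had 6.67, 7.57, 8.16 and 6.76 at 0 h, 6.44, 6.38, 5.15 and 6.43 at 18 h, and 6.25, 6.05, 7.07 and 4.47 at 42 h. At 6 ppt they had 5.35, 6.66, 4.97 and 5.84 at 0 h, 5.68, 6.56, 6.60 and 5.19 at 18 h, and 6.54, 7.25, 6.81 and 6.41 at 42 h. At 12 ppt they had 6.66, 5.98, 3.83 and 5.28 at 0 h, 5.94, 5.83 and 6.32 at 18 h, and 5.79, 7.85, 6.01 and 6.57 at 42 h.

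The level of NPB at 42 h minus that at 0 h was -1.33 in 0.4 ppt fish, 1.05 in 6 ppt fish, 1.12 in 12 ppt fish and -1.35 in 18 ppt fish, against -0.12 in the handling control. None passed (adjusted p = 0.340, 0.203, 0.192, 0.383 and 0.954). With slide as a fixed block the 12 ppt value was 1.86 and passed (adjusted p = 0.0425). At 12 ppt and 0 h, NPB differed from the control by -1.10 (SE 0.53, adjusted p = 0.181), and this group held the other fish that was not well above background. With slide as a fixed block this difference was -1.78 and passed (adjusted p = 0.0444), and without the 3 dimmest arrays by detection it was -0.56. The fit without a block called 1.26% of features in this comparison. The 5 pre-experiment fish were at 6.22, 5.97, 5.74, 5.91 and 6.75, and no salinity at 0 h differed from them by an amount that passed.

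The patterns of HCAR1-1 and NPB were close to each other and less like that of RGS4. Over the 16 group means, HCAR1-1 and NPB correlated at r = 0.884, RGS4 and HCAR1-1 at 0.402, and RGS4 and NPB at 0.351. Within groups, over the 70 fish, the values were 0.650, 0.141 and 0.360. These are descriptions, since the 3 genes were read on the same arrays. The level of each also correlated with the log2 median signal of the array. Over the 16 group means r was 0.134 for RGS4, 0.438 for HCAR1-1 and 0.534 for NPB, and within groups it was 0.111, 0.243 and 0.296 in the same order. The part of array brightness in the likeness was not tested.

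**Figure D4:**
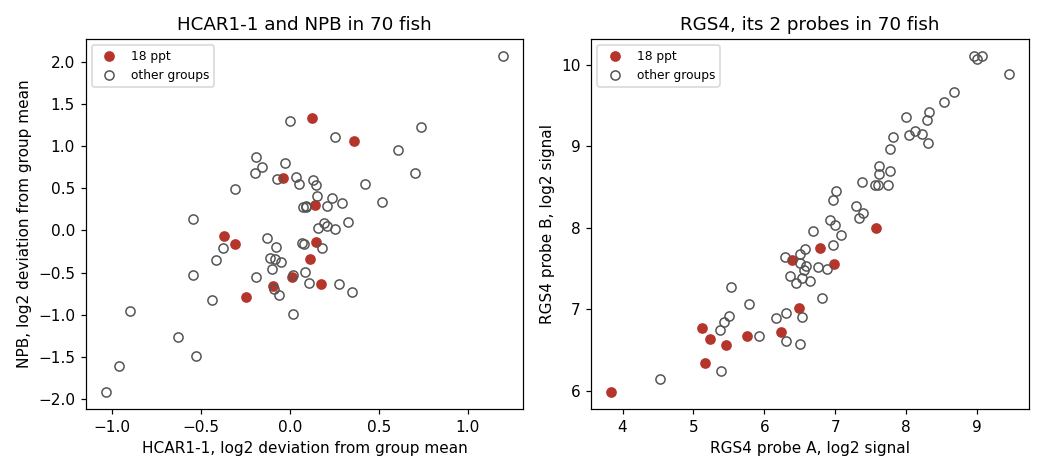
Left, deviation from the group mean (log2) of NPB against that of HCAR1-1 in 70 fish, with r = 0.650; right, the log2 signal of RGS4 probe B against probe A in 70 fish. Filled points are fish at 18 ppt, of which the 4 taken at 18 h lie at 3.84 to 5.24 on RGS4 probe A and 5.99 to 6.78 on probe B.

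Among 372 named transcripts of the study's list that passed the filter, those most like RGS4 over the 16 group means were FRRS1, a ferric-chelate reductase (r = 0.867), and 2 transcripts of capn5a, a calpain protease (0.851 and 0.849). Those most like HCAR1-1 were cyp2k16, a cytochrome P450 (0.859), the forkhead transcription factor foxa1 (0.849) and the anion exchanger slc26a6l (0.839). Those most like NPB were slc26a6l (0.880), tsc22d1 (0.855) and foxa1 (0.843). HCAR1-1 and NPB thus shared 2 of their 3 closest transcripts. The study selected all of these for salinity effects.

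The other genes of G-protein signaling on the study's list were the receptors PTAFR, gpr84, f2rl1.2, fzd9a, CXCR5 and lpar2a (2 transcripts), the alpha subunit gna11b and the calcium sensor calm3a. Averaged over times, 0 of these 9 transcripts passed in either direction at 0.4, 6, 12 or 18 ppt against 2.3 ppt. In the filtered fit these comparisons called 0%, 0%, 0.0351% and 0.133% of all features. At 18 ppt the differences of the 9 transcripts ran from -0.53 to 0.02 with a median of -0.30, against a median of -0.03 over all features. By time, CXCR5 alone passed, at 12 ppt and 0 h (-1.47, adjusted p = 0.0245). It did not pass the filter and came from the fit without it, which called 1.26% of features. That group held the array of fish 3, with 62.9% of probes well above background, and CXCR5 was not tested without it. Against the pre-experiment fish at 0 h, PTAFR was higher at 0.4 ppt (1.47, adjusted p = 0.0363) and at 12 ppt (1.36, adjusted p = 0.0435). These comparisons called 0.232% and 0.533% of features. At 0.4 ppt against 2.3 ppt over all times, the 9 transcripts ran from -0.70 for CXCR5, a chemokine receptor, to 0.72 for PTAFR, the receptor for platelet-activating factor. Exposure time affected 3 of the 9, PTAFR (q = 0.00357), fzd9a, a Wnt receptor (q = 0.00139), and gna11b (q = 0.0247), a share near the 35.6% of all features. From 0 to 42 h over all salinities, where 41% of features were called, PTAFR rose by 0.63, while fzd9a fell by 0.52 and gna11b fell by 0.20 on the log2 scale.

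Marker transcripts of gill cell types were read in the same fish, as the log2 of the summed signal of each list, a measure that its brightest transcripts dominate. For 6 ionocyte transcripts this sum at 42 h was 12.7 to 14.6 in the 18 ppt fish, against 14.8 to 15.3 in the controls. Of the 6, 2 passed as lower. This comparison called 0.0912% of all features in the filtered fit and 0.0519% without the filter. The ionocyte list did not move as a whole, since log2 differences of its single transcripts ran from -2.87 to 1.29. The 18 ppt and control ranges of the sum overlapped for the other lists. The sum over 6 epithelial barrier transcripts was 10.3 to 11.9 at 18 ppt, against 11.6 to 12.4 in the controls, and 1 of 6 passed as lower. For 6 leukocyte transcripts, CXCR5 among them, the sum was 10.6 to 12.0 at 18 ppt, against 10.6 to 12.5 in the controls. For 5 transcripts of dividing cells it was 9.22 to 11.1, against 9.46 to 10.7. Of the leukocyte transcripts 0 of 6 passed, and of those of dividing cells 0 of 5. These markers also come from the study's list, and their part in the levels of HCAR1-1, NPB and RGS4 was not tested. Whether a sum followed the number of cells or the RNA per cell was not tested either.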

How the data were processed

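Gill RNA of 70 delta smelt was hybridised to 1-colour Agilent arrays. The authors deposited the scanner intensity of each spot, as Feature Extraction gave it, and a normalized log2 table centred per probe. From the deposited intensity values, processed signals were filtered (at least 100 on 50% of arrays, 14425 probes), outlier spots were removed, and values were quantile normalized and log2 transformed. Probes of 1 listed transcript were averaged. A linear model of 16 group means was run in limma 3.58.1 (R 4.3.3), and p-values were adjusted (Benjamini-Hochberg, threshold 0.05) over all features (14254, or 36608 without the filter for NPB). The fit was tested on simulated data. The number of arrays limits the precision.

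The named genes were the 3 genes, the other listed genes of G-protein signaling, and the 3 named transcripts most like each by Pearson r over group means. The genes and lists were chosen with earlier results of these data known. Alternatives covered background, normalization, filter, batches, weights, test and each fish left out. No 2 arrays were identical (highest correlation 0.979).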

Additional observations from a re-analysis of the deposited data

Results flagged for a closer look

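Among the 45 combinations of gene and group with 4 to 6 fish, 1 held a fish far from the others, and chance gives about 1 in 20. NPB in fish 6 at 0.4 ppt and 18 h was at 5.15, while the next lowest of the 4 fish was at 6.38. HCAR1-1 was also lowest in that fish, at 6.34.

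NPB at 0.4 ppt was above the control mean in all 4 fish at 0 h and below it in all 4 fish at 18 h. The difference between the effects at 0 and 18 h was 1.28 (SE 0.75) and did not pass in limma (adjusted p = 1.00).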

How the results depend on the processing

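All values are log2 differences unless named as F. The lower RGS4 and HCAR1-1 at 18 ppt over all times kept their direction in every alternative run, but not always the call. For RGS4 the call was lost with no filter (-1.15), with a filter on probes well above background (-1.15), with the authors' deposited table (-1.15), within scan 1 (-1.33), and within PMT 580 (-1.09) and 610 (-0.95). For HCAR1-1 it was lost with no filter (-0.86), with the filter on probes well above background (-0.85), with slide as a fixed block (-0.72), within scan 1 (-0.73), and within PMT 580 (-0.89) and 610 (-0.70). NPB at 18 ppt passed with array weights (-1.32) and by the methods' post hoc test (-1.27). That test adjusts p by Tukey's method over the salinities within 1 gene, while the other settings adjust over all features. A pass by it is therefore not equal to a pass in the other settings. The study's methods based this test on a main effect or interaction that passed for the gene, and read single times where the interaction passed. Here it was run for every gene and time. In the main fit the F test for salinity did not pass for HCAR1-1 or NPB, nor did that for the interaction for RGS4, HCAR1-1 or NPB. RGS4 at 0.4 ppt passed with array weights (0.98) and by the post hoc test (1.13), and at 12 ppt it passed with the same settings (-1.04 and -0.83).

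RGS4 at 12 ppt and 42 h lost its call with normexp (-1.12), 75th percentile normalization (-1.73), no filter (-1.58), the well above background filter (-1.58), the authors' table (-1.58), slide as a random (-1.66) or fixed block (-1.48), PMT as a block (-1.67), within PMT 580 (-1.18) and 610 (-1.48), and with probe B alone (-1.55). RGS4 at 0.4 ppt and 0 h against the pre-experiment fish lost its call with 75th percentile normalization (1.99), no filter (2.03), the well above background filter (2.02), the authors' table (2.03), slide (1.73) or PMT (1.95) as a fixed block, within scan 1 (2.17), scan 2 (1.16), PMT 580 (1.63) and PMT 610 (2.47), with array brightness as a covariate (1.91), with the ordinary statistic of the gene's own linear model (1.97) and with probe B alone (1.90).

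The F test for salinity was lost for RGS4 within PMT 610 (F = 6.88). For HCAR1-1 it passed with array brightness (F = 5.59), array weights (F = 7.75) and, in an alternative chosen after seeing the data, without the 3 arrays that had under 70% of probes well above background (F = 6.58). For NPB it passed with array weights (F = 5.16). Signs turned for NPB at 0.4 ppt with normexp (0.0081), for RGS4 at 18 ppt and 42 h within scan 2 (0.25), and within PMT 610 for RGS4 at 18 ppt and 0 h (0.81), HCAR1-1 at 18 ppt and 18 h (0.093) and NPB at 18 ppt and 18 h (0.60). PMT 610 held only 1 fish at 18 ppt and 1 control at 0 h, and 2 of each at 18 h. At single times, RGS4 at 18 ppt and 18 h passed with slide as a random block (-2.33), array brightness (-2.22), array weights (-2.14), the post hoc test, probe A alone (-2.43) and without the 3 arrays. HCAR1-1 at 18 ppt and 42 h passed with 75th percentile normalization (-1.53), the well above background filter (-1.50), the authors' table (-1.52), array brightness (-1.12), array weights (-1.18) and the post hoc test. NPB at 18 ppt and 42 h passed with array brightness (-2.12) and the post hoc test. RGS4 at 0.4 ppt and 0 h passed by the post hoc test (1.39), and the interaction of salinity and time passed for RGS4, HCAR1-1 and NPB with array weights (F = 2.68, 3.21 and 2.97). For these reversals, gained calls and lost calls the cause was not tested. An adjusted p depends on all features, and the share of features that passed in each alternative setting was not counted. The interaction for NPB did not pass in the main fit at F = 2.72 (q = 0.350), an F close to those that passed with array weights.

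With the replicate number of the labels as a block (replicate block), RGS4 at 0.4 ppt passed (1.35), the calls of RGS4 (-1.04) and HCAR1-1 (-0.56) at 18 ppt were lost, and NPB at 0.4 ppt turned sign (0.076). Nothing in the labels ties same-numbered fish together, their deviations correlated at 0.0050 on average, and 13 of 70 fish correlated best with their own number.

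Leaving out 1 fish at a time gave ranges of 1.02 to 1.25 for RGS4 at 0.4 ppt, -1.91 to -1.35 for RGS4 at 12 ppt and 42 h, 1.62 to 2.19 for RGS4 at 0.4 ppt and 0 h against pre-experiment fish, -0.81 to -0.66 for HCAR1-1 at 18 ppt, -1.42 to -1.13 for NPB at 18 ppt, -0.21 to 0.087 for NPB at 0.4 ppt, and F = 4.84 to 7.53 for the salinity effect on HCAR1-1. These runs changed the call or sign in 1 of 30, 5 of 10, 7 of 9, 2 of 30, 2 of 30, 3 of 30 and 10 of 65 runs, in the same order. The RGS4 difference at 18 ppt (-1.37 to -1.17) passed in all 30 runs. Normexp was run on the median spot signal in place of the mean. No gene of the 3 had a signal of 100 on every array, and further probes of HCAR1-1 and NPB could not be assigned, so those alternatives were not run.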

Other observations

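The array of fish 3 at 12 ppt and 0 h was among the dimmest, with a median signal of 17.1 and 62.9% of probes well above background. In that fish RGS4, HCAR1-1 and NPB were each the lowest of the 4, at 6.54, 6.33 and 3.83. The array of fish 5 at 18 ppt and 42 h was dimmer still by detection (62.0% of probes), and there NPB was the lowest of the 4 at 3.65, while RGS4 and HCAR1-1 were the highest, at 7.79 and 6.60.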
